A study of Mus musculus with 6 samples.

Results

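Membrane transporters, ion pumps and ion channels other than potassium channels were followed in the tibialis anterior (TA) muscle of NS-DADm mice. The 24 genes described here are the genes of the authors' deposited table whose symbol starts with Slc, Abc, Atp, Cacn, Scn, Clcn, Clic, Trpc, Trpm, Trpv, Aqp, Ano or Ryr, apart from the fatty acid transporter gene Slc27a1, out of 709 genes in that table. NS-DADm mice carry, in the whole body, knock-in point mutations in the deacetylase activation domains of nuclear receptor corepressors, NCoR among them, the domain that HDAC3 needs for its enzymatic activity. RNA was sequenced from TA muscles of 3 NS-DADm mice and 3 wild-type (WT) mice, 1 library per mouse, all 21 weeks old and of the strain C57BL/6 by the labels (C57BL/6J by the methods). The mutations are present in every tissue, so an effect that reached the muscle through blood or nerve cannot be told apart from an effect in the muscle itself. The labels do not give the sex of the mice, and the methods name males as the default for the study's experiments.

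The table holds only genes that the authors called at an adjusted p under 0.05 between these same 6 libraries, which is 5.76% of the 12308 genes they tested. Its values are normalized counts, which are counts of reads scaled by 1 size factor for each library, and they were multiples of 1 step in each library, between 0.905 and 1.21. Reads, where given, are values divided by this step and are thus inferred from the table. Between 15573 and 21274 reads per library fell on the 24 genes and between 1047804 and 1411470 on all listed genes. The sources used here do not give the depth of the libraries. Ncor1 and Hdac3 are not in the table, and a point mutation would not show in counts, so the genotype labels were not checked. Of 9 markers of skeletal muscle fibers, only Actn3 was listed, with normalized counts of 142484, 159177 and 119284 in WT and 201655, 201451 and 170276 in NS-DADm. A gene that is not listed was either not tested or not called, and it has no value here.

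Transporters of the solute carrier (Slc) families move amino acids, sugars, lactate and ions across the plasma membrane or organelle membranes, mostly driven by gradients. Pumps of the Atp families and transporters of the ABC families spend ATP to move ions, phospholipids, sterols or fatty acyl groups. Channels let ions or water pass down their gradients, and in skeletal muscle they carry the action potential, trigger calcium release and let water follow during contraction.

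The direction of change was evenly divided among these genes. In NS-DADm muscles 12 of the 24 genes were higher and 12 lower than in WT muscles, next to 50.9% higher and 49.1% lower among all listed genes. All 24 had a limma adjusted p under 0.05 over the listed genes, as did 100% of the table, because the table was selected for this contrast. The p-values below set the difference between groups against the spread in these same libraries, and they are therefore not independent evidence. With the adjustment made over all 12308 tested genes, 14 of the 24 stayed under 0.05, 9 higher and 5 lower. Of the table, 68.3% did (34.8% higher and 33.4% lower). This adjustment kept the limma fit of the 709 listed genes. Unlisted genes have no values here, so each was counted as a test without a change. A gene that missed 0.05 in this way had still been called in the authors' own test over those genes. In 23 of the 24 genes the WT and NS-DADm libraries did not overlap, next to 97.9% of the table, and Abca1 was the exception. Group means differed by at least 2-fold in 5 higher genes (Atp8a2, Slc25a34, Slc43a2, Aqp4 and Abcc8) and in 4 lower genes (Trpm1, Slc6a17, Slc47a1 and Slc6a9). Of all listed genes, 15.8% were at least 2-fold higher and 14.7% at least 2-fold lower, 30.5% in all. The median limma log2 fold change was 0.01 over the 24 genes and 0.38 over the table. Listed genes were selected as changed, and among the 24 the smallest fall was -0.37 (Clcn4) and the smallest rise 0.39 (Atp6v0e2). A median here thus depends mostly on which direction holds more genes, and a gap between medians does not measure a shift. In bulk muscle, fewer cells of a type and less RNA per cell cannot be told apart.

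**Figure D1:**
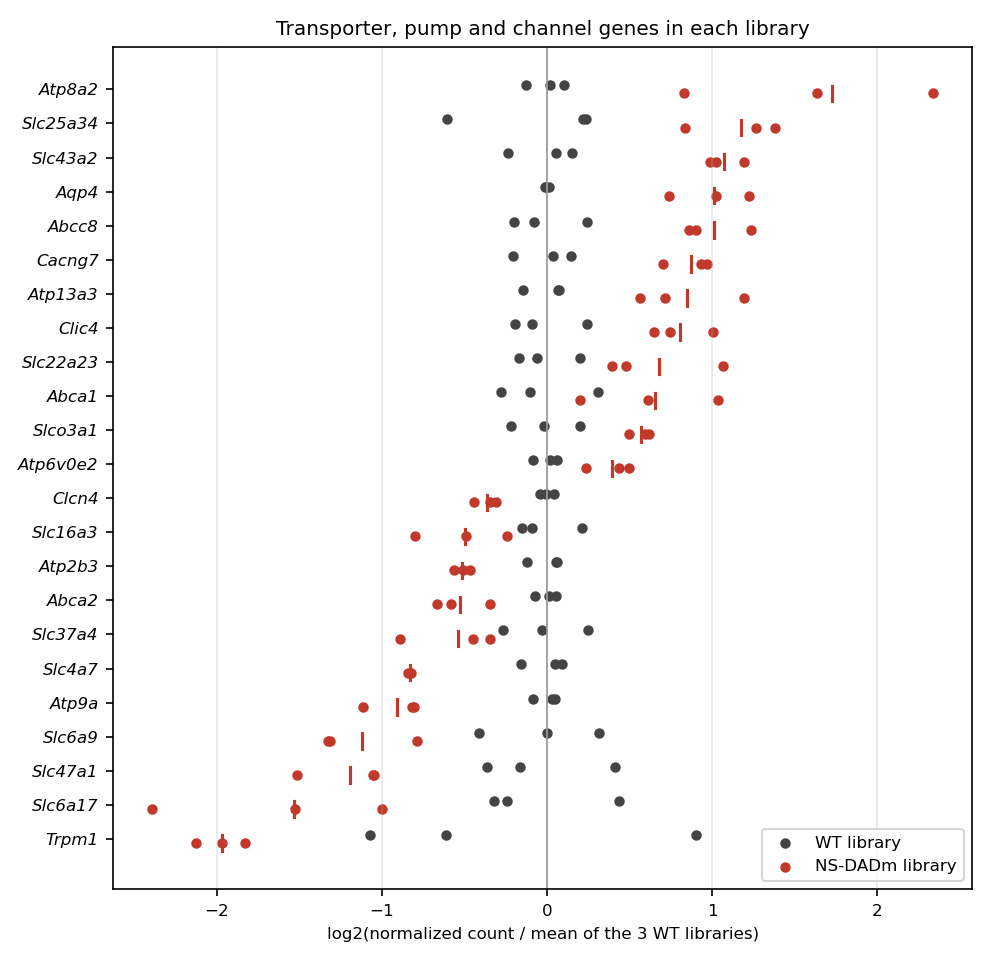
Each row is 1 of 23 genes, and each point is the log2 ratio of 1 library's normalized count to the mean of the 3 WT libraries (horizontal axis), with WT in grey and NS-DADm in red and a vertical red bar at the log2 ratio of the group means. The 12 genes in the upper rows were higher in NS-DADm and the 11 in the lower rows were lower, and the points of the 2 groups overlap only in Abca1.

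By family, the Slc genes gave 10 of the 24, of which 4 were higher and 6 lower. The annotation holds 384 protein-coding symbols of this kind. The median log2 fold change of the 10 listed Slc genes was -0.52, as 6 of them were lower. It was 0.38 over the table, where slightly more genes were higher than lower. The Atp genes gave 5 (3 higher, 2 lower) of 88 annotated symbols and the ABC genes 4 (2 higher, 2 lower) of 50, with medians of 0.39 and 0.07. The other 5 were Cacng7, Clic4 and Aqp4, which were higher, and Clcn4 and Trpm1, which were lower, with a median of 0.81. None of the 18 Scn, 9 Trpc, 6 Trpv, 10 Ano and 3 Ryr symbols was listed. The voltage-gated sodium channels and the ryanodine receptors thus have no value here.

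Transporters of amino acids moved in both directions. Slc43a2 encodes LAT4, a facilitative carrier of branched-chain and other large neutral amino acids, and lies on chromosome 11 from 75531694 to 75577575 of GRCm38. Its normalized counts were 327, 428 and 399.5 in the WT mice and 764, 783 and 881 in the NS-DADm mice. The groups were separate, and the lowest NS-DADm value was 1.78 times the highest WT value, the widest gap among the 24 genes. The means were 385 ± 52.1 (SD, n = 3) in WT and 809 ± 63 (SD, n = 3) in NS-DADm, a 2.1-fold rise (log2 fold change 1.08, standard error 0.13, limma adjusted p = 7.30e-05). This was the smallest adjusted p of the 24 genes, and it was 0.00127 when adjusted over all tested genes in limma. The antisense transcript Gm45606 shares 922 exon bases with Slc43a2 on the opposite strand and was itself listed. Its normalized counts were 18.1, 21.8 and 9.6 in WT and 30.6, 51.9 and 54.3 in NS-DADm, 2.76-fold higher. The sources used here do not say whether reads were counted by strand. Gm45606 was named after its values were seen.

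Slc6a9 and Slc6a17, of the sodium-coupled Slc6 family, were both lower. Slc6a9 encodes the glycine transporter GlyT1, with 45.3, 60.1 and 74.9 normalized counts in WT and 34.9, 24 and 24.1 in NS-DADm. The groups did not overlap, and the gene fell 2.17-fold (log2 fold change -1.08, standard error 0.27, limma adjusted p = 0.00323). Slc6a17 encodes NTT4, a carrier of neutral amino acids known from synaptic vesicles. It was measured at 59.8, 35.5 and 37.5 in WT and 22.2, 15.4 and 8.45 in NS-DADm, 2.89-fold lower (log2 fold change -1.52, standard error 0.38, limma adjusted p = 0.00297). Both genes had few reads, between 7 and 78 per library, and both missed 0.05 when adjusted over all tested genes in limma (0.056 and 0.0516). Of the exon bases of Slc6a9, 27.8% are shared with Ccdc24 and 9.94% with the noncoding gene Gm17114, each on the opposite strand, so its reads cannot be assigned with certainty.

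The listed gene of the mitochondrial carrier family was higher. Slc25a34 encodes an inner membrane carrier of the Slc25 family and lies on chromosome 4 from 141618824 to 141623821 of GRCm38. Its normalized counts were 453, 252 and 447 in WT and 998, 922 and 684 in NS-DADm. One WT library, replicate 2, was well under the other WT libraries, and all NS-DADm libraries were above all WT libraries. The mean went from 384 ± 114 (SD, n = 3) to 868 ± 164 (SD, n = 3), a 2.26-fold rise (log2 fold change 1.21, standard error 0.22, limma adjusted p = 8.03e-04). From a list of 29 mitochondrial carriers and channels with other symbols, 2 were listed and both were lower. Mcu, the pore of the mitochondrial calcium uniporter, went from 598, 634 and 728 in WT to 512, 458 and 450.2 in NS-DADm, 1.38-fold lower. Tspo, an outer membrane protein that binds cholesterol, was 1.62-fold lower. In limma both missed 0.05 when adjusted over all tested genes (0.058 and 0.0887).

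Promoter windows of 300 bases, from 250 bases before to 50 after an annotated start, were read from RefSeq (GRCm38.p6) for 16 of the 24 genes, 27 windows in all. No window was read for Abcc8, Aqp4, Atp13a3, Atp2b3, Atp8a2, Slc47a1 and Slco3a1. The windows were searched on both strands for AGGTCA, a hexamer bound by many nuclear receptors, the factors that recruit these corepressors, and for the E-box CANNTG, bound by myogenic factors. AGGTCA was found in windows of 2 of 7 higher genes (Slc25a34 and Atp6v0e2) and 3 of 9 lower genes (Trpm1, Slc37a4 and Slc4a7). Counted by window, this was 2 of 8 windows (25.0%) and 3 of 19 windows (15.8%), next to 16.3% of all 32851 promoter windows. The E-box was found in 5 of 8 windows of higher genes and 14 of 19 of lower genes (62.5% and 73.7%), next to 72.3% of all windows. A match describes the letters only. The windows of 3 of these genes are printed, each 5′ to 3′ on the gene's strand, with the match in capitals, which reads TGACCT where it lies on the other strand. Only windows with an AGGTCA match were considered for printing, so the printed windows say nothing of how common a match is. Slc25a34 is shown as the gene with the largest fold rise among those with a window and Trpm1 as the gene with the largest fold decrease. Slc37a4 is shown as the lower gene with the most reads among those with a match. Slc16a3, a lower gene with more reads, had no match in its window. Trpm1 and Slc37a4 also have windows without a match. The Slc25a34 window (chr4:141623785-141624084, minus strand) holds the match 119 bases before the start. The Slc37a4 window with a match (chr9:44396696-44396995, plus strand) holds it 127 bases before the start, and the Trpm1 window with a match (chr7:64185209-64185508, plus strand) 19 bases before.
Slc25a34: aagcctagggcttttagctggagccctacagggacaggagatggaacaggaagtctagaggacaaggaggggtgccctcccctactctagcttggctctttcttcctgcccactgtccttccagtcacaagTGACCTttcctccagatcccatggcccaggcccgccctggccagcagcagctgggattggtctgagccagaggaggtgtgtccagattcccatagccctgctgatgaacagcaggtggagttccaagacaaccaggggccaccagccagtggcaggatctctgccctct
Slc37a4: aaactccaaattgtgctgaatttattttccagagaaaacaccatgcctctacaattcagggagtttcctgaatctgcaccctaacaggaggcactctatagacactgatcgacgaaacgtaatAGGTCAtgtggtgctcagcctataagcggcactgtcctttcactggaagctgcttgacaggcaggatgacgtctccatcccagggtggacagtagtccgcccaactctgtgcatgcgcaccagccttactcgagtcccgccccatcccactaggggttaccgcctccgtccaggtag
Trpm1: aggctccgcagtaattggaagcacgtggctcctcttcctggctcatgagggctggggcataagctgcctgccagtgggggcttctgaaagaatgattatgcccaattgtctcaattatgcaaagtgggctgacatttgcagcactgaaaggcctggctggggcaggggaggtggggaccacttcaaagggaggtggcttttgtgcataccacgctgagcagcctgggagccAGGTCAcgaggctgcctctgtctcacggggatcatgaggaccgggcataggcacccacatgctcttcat

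Carriers of lactate and of glucose 6-phosphate were lower. Slc16a3 encodes the monocarboxylate transporter MCT4, which exports lactate from glycolytic muscle fibers, and it had the highest counts of the 24 genes. It was measured at 6702, 6999 and 8620.1 normalized counts in WT and 5292, 4286 and 6283 in NS-DADm. The groups came close, since the lowest WT value was 1.07 times the highest NS-DADm value. Slc16a3 fell 1.41-fold (log2 fold change -0.50, standard error 0.15, limma adjusted p = 0.00616), and in limma it missed 0.05 when adjusted over all tested genes (0.107). Slc37a4 encodes the transporter that brings glucose 6-phosphate into the endoplasmic reticulum, with 1455, 2076 and 1716 in WT and 1285, 1377 and 946 in NS-DADm. Here too the groups were close, with a ratio of 1.06 between the lowest WT and the highest NS-DADm library. The decrease was 1.45-fold, and the limma adjusted p was 0.00685 over the listed genes and 0.119 over all tested genes. Bsg and Emb, the chaperones of monocarboxylate transporters, were not listed.

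Organic ion transporters moved in both directions. Slco3a1 encodes OATP3A1, an uptake carrier of organic anions such as prostaglandins, and rose from 821, 944 and 1098 normalized counts in WT to 1465, 1444 and 1349 in NS-DADm. The NS-DADm libraries were tightly grouped and above all WT libraries, a 1.49-fold rise (log2 fold change 0.58, standard error 0.12, limma adjusted p = 0.00133). Slc22a23, an organic ion transporter homolog without an established substrate, was 1.6-fold higher, at 365, 437 and 339 in WT and 499.5, 529 and 797 in NS-DADm. Replicate 3 of NS-DADm was well above the other NS-DADm libraries, and the limma adjusted p over all tested genes was 0.0766. Slc47a1 encodes MATE1, a proton-coupled exporter of organic cations best known from kidney and liver. Its normalized counts were 673, 586 and 1005 in WT and 363, 264 and 364 in NS-DADm, with no overlap. It fell 2.28-fold (log2 fold change -1.16, standard error 0.20, limma adjusted p = 5.84e-04), the largest decrease among genes of the set with over 100 normalized counts on average. Slc47a1 lies on chromosome 11 from 61343401 to 61378345 of GRCm38, 1.03 Mb from Ncor1, the gene of the NCoR mutation. A sequence difference that travelled with the mutated locus cannot be told apart from the mutation itself for this gene. Slc43a2 and Slc16a3 are on the same chromosome, 13.2 Mb and 58.6 Mb from Ncor1. The length of sequence that travelled with the mutated locus is not given, so the same limit may hold for these genes. The sodium bicarbonate cotransporter gene Slc4a7, which encodes NBCn1, a regulator of intracellular pH, was 1.78-fold lower. It was measured at 136, 132 and 114 in WT and 71.8, 72 and 71.2 in NS-DADm (log2 fold change -0.82, standard error 0.17, limma adjusted p = 0.00134). The NS-DADm values lay closer together than in any other gene of the set, with a coefficient of variation of 0.596%. They rest on 68, 75 and 59 reads, too few for so narrow a spread to describe how alike the mice were.

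Of the P-type and vacuolar pumps, 3 were higher and 2 lower. Atp8a2 and Atp9a belong to the P4 family of phospholipid flippases, which move phospholipids to the cytosolic leaflet of membranes, and they moved in opposite directions. Atp8a2 had 21.7, 25.5 and 24 normalized counts in WT and 73.9, 120.1 and 42.2 in NS-DADm. All NS-DADm libraries were above WT but far apart, with replicate 2 the highest and replicate 3 the lowest. The rise of 3.32-fold was the largest of the 24 genes (log2 fold change 1.57, standard error 0.34, limma adjusted p = 0.00173). A processed pseudogene on the opposite strand, Gm19716, covers 13.5% of its exon bases, and the antisense gene 4930563I02Rik 0.623%. The protein-coding gene Nupl1 shares 241 of these bases (1.56%) on the same strand. Atp9a, an endosomal member of the family, was well separated, at 581, 535 and 588 in WT and 323, 262 and 325 in NS-DADm. It lies on chromosome 2 from 168634438 to 168742409 of GRCm38 and fell 1.87-fold (log2 fold change -0.91, standard error 0.13, limma adjusted p = 1.79e-04). Tmem30a and Tmem30b, which encode the partner subunits of many flippases, were not listed.

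Atp13a3, a P5-type ATPase linked to polyamine transport, was 1.8-fold higher, with 515, 517 and 445 in WT and 808, 1125 and 727 in NS-DADm. The NS-DADm libraries lay above the WT libraries and were spread, with replicate 2 the highest (log2 fold change 0.82, standard error 0.16, limma adjusted p = 0.001). Atp6v0e2, a small membrane subunit of the vacuolar proton pump, had 608, 675 and 654 in WT and 910.3, 873 and 762 in NS-DADm. The 1.31-fold rise was the smallest among the higher genes, and in limma its adjusted p over all tested genes was 0.0887. Atp2b3 encodes PMCA3, a plasma membrane calcium pump. Its counts of 276, 244 and 277 in WT and 187, 192 and 179.8 in NS-DADm did not overlap, and it was 1.43-fold lower (limma adjusted p = 0.00334 over the listed genes and 0.058 over all tested genes). No subunit of the sodium and potassium pump and none of the sarcoplasmic reticulum calcium pumps was listed.

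Among ABC transporters, 2 were higher and 2 lower. The subfamily A genes moved in opposite directions. Abca1, which exports cholesterol to apolipoproteins and is a known target of the nuclear receptor LXR, had 251, 222 and 333 in WT and 411, 551 and 309 in NS-DADm. The highest WT library was above the lowest NS-DADm library, and the 1.58-fold difference had the largest adjusted p of the 24 genes (limma adjusted p = 0.0124 over the listed genes and 0.216 over all tested genes). Abca2, a lipid transporter of late endosomes and lysosomes, was lower without overlap, at 634, 598 and 652 in WT and 420.3, 397 and 494 in NS-DADm, a 1.44-fold decrease (log2 fold change -0.53, standard error 0.12, limma adjusted p = 0.00189). Of 8 macrophage markers, cells in which Abca1 is also known to act, Mrc1 was the 1 listed, at 126, 120.2 and 144 in WT and 276, 296 and 224 in NS-DADm. It was 2.04-fold higher, and its part in the Abca1 values was not tested.

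Abcc8 encodes SUR1, a sulfonylurea receptor subunit of ATP-sensitive potassium channels. Its counts were 67.9, 73.7 and 92.2 in WT and 142, 183 and 146 in NS-DADm, without overlap. The rise was 2.01-fold (log2 fold change 1.0, standard error 0.19, limma adjusted p = 8.61e-04).

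Among water and ion channels, Aqp4, Cacng7 and Clic4 were higher. Aqp4 encodes aquaporin 4, the water channel of the sarcolemma of fast-twitch fibers, and lies on chromosome 18 from 15389496 to 15410982 of GRCm38. The WT libraries were nearly equal, at 999, 985 and 982 normalized counts, while the NS-DADm libraries had 2314, 2012 and 1649. Aqp4 rose 2.01-fold, from 989 ± 8.79 (SD, n = 3) to 1992 ± 333 (SD, n = 3) (log2 fold change 1.0, standard error 0.12, limma adjusted p = 9.41e-05). Among the genes that rose it had the highest normalized counts, not scaled by length. Per kb in NS-DADm, Atp6v0e2 (356) and Slc25a34 (325) were above Aqp4 (319.5). Cacng7 belongs to the gamma subunit family of voltage-gated calcium channels, and its protein is known in brain as an auxiliary subunit of AMPA receptors. Its counts were 321, 297 and 251 in WT and 471, 552 and 567 in NS-DADm, without overlap, a 1.83-fold rise (log2 fold change 0.87, standard error 0.13, limma adjusted p = 3.44e-04). Clic4, a chloride intracellular channel protein, was 1.75-fold higher, with 502, 632 and 467 in WT and 837, 1070.0 and 896 in NS-DADm (log2 fold change 0.81, standard error 0.14, limma adjusted p = 6.11e-04).

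Clcn4 and Trpm1 were lower. Clcn4 encodes the endosomal chloride and proton exchanger ClC-4, with 1116, 1179.7 and 1143 in WT and 902, 925 and 842 in NS-DADm. Both groups were tight and did not overlap, and the 1.29-fold decrease was the smallest of the 24 changes (limma adjusted p = 0.00365 over the listed genes and 0.0634 over all tested genes). The antisense gene Gm45631 on the opposite strand shares 11.5% of the exon bases of Clcn4. Ostm1, the beta subunit of the related exchanger ClC-7, was 1.46-fold lower. Trpm1, a cation channel known from retinal bipolar cells and melanocytes, was scarce, at 17.2, 49.2 and 12.5 in WT and 7.39, 6.72 and 6.03 in NS-DADm, or 5 to 54 reads per library. WT replicate 2 stood far above the other WT libraries. The means differed 3.91-fold, while the limma log2 fold change, less moved by that library, was -1.58 (standard error 0.50, limma adjusted p = 0.00903). Without that library Trpm1 missed 0.05, at a log2 fold change of -1.03 and a limma adjusted p of 0.0633. It also missed 0.05 in limma when adjusted over all tested genes (0.157).

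**Figure D2:**
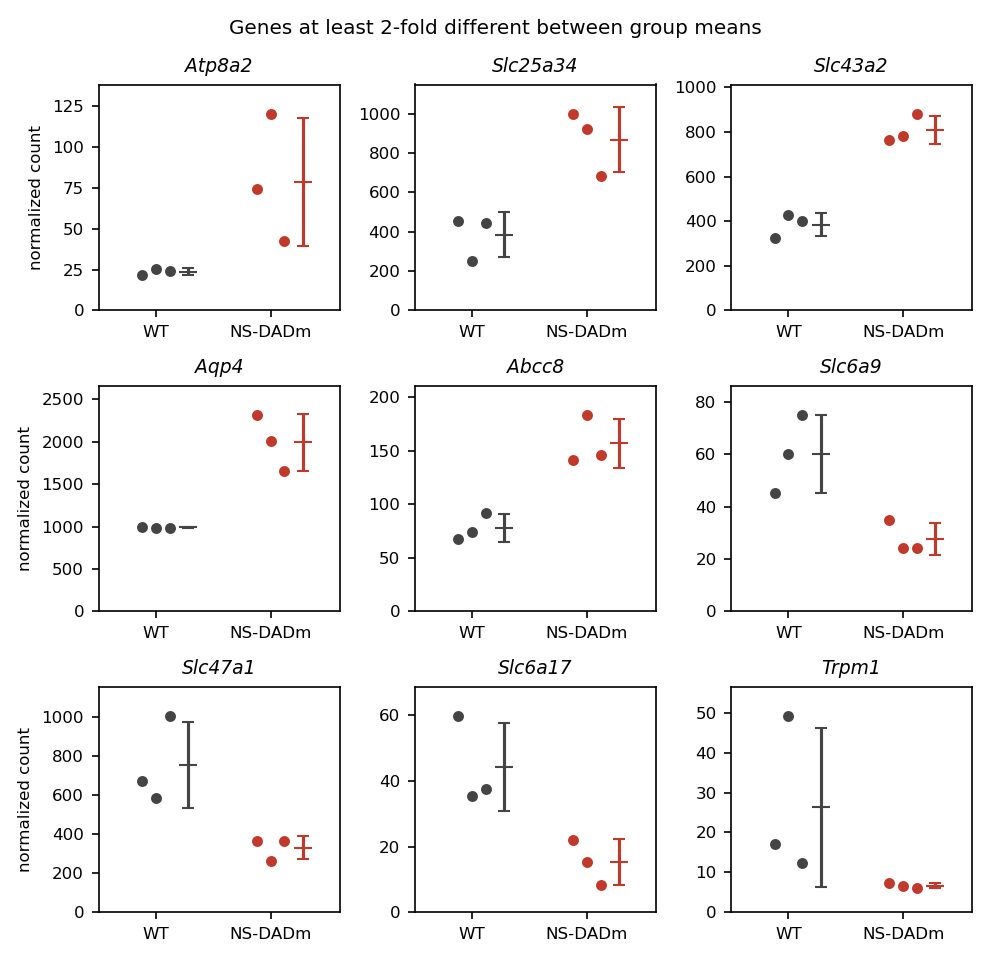
Normalized count (vertical axis, from 0) of the 9 genes whose group means differ by at least 2-fold, with 1 point per library and, beside the points, the mean and SD of 3 libraries for WT (grey) and NS-DADm (red). Aqp4 has WT values between 982 and 999 and NS-DADm values from 1649 up, while in Trpm1 a single WT library at 49.2 carries much of the WT mean.

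Levels of different genes were compared per kb of annotated exon, which takes gene length into account but not which isoform muscle uses. Slc16a3 was the highest in both groups, at 1399 normalized counts per kb in WT and 994 in NS-DADm, followed by Slc37a4 at 612 and 421. Atp6v0e2 had rank 3 in both, at 271 and 356 per kb. Slc47a1 went from rank 4 in WT (223 per kb) to rank 11 in NS-DADm (97.7 per kb), and Slc25a34 from rank 7 (144) to rank 4 (325). The lowest levels were those of Slc6a17, Trpm1 and Atp8a2, with 4.3, 1.78 and 1.54 per kb in WT. Of 23 pairs of neighbours in the WT order, 13 overlapped in their library values, so much of the middle of this order is not resolved. The genes with under 100 normalized counts on average were Slc4a7, Atp8a2, Slc6a9, Slc6a17 and Trpm1, and 4 of these 5 were lower.

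**Figure D3:**
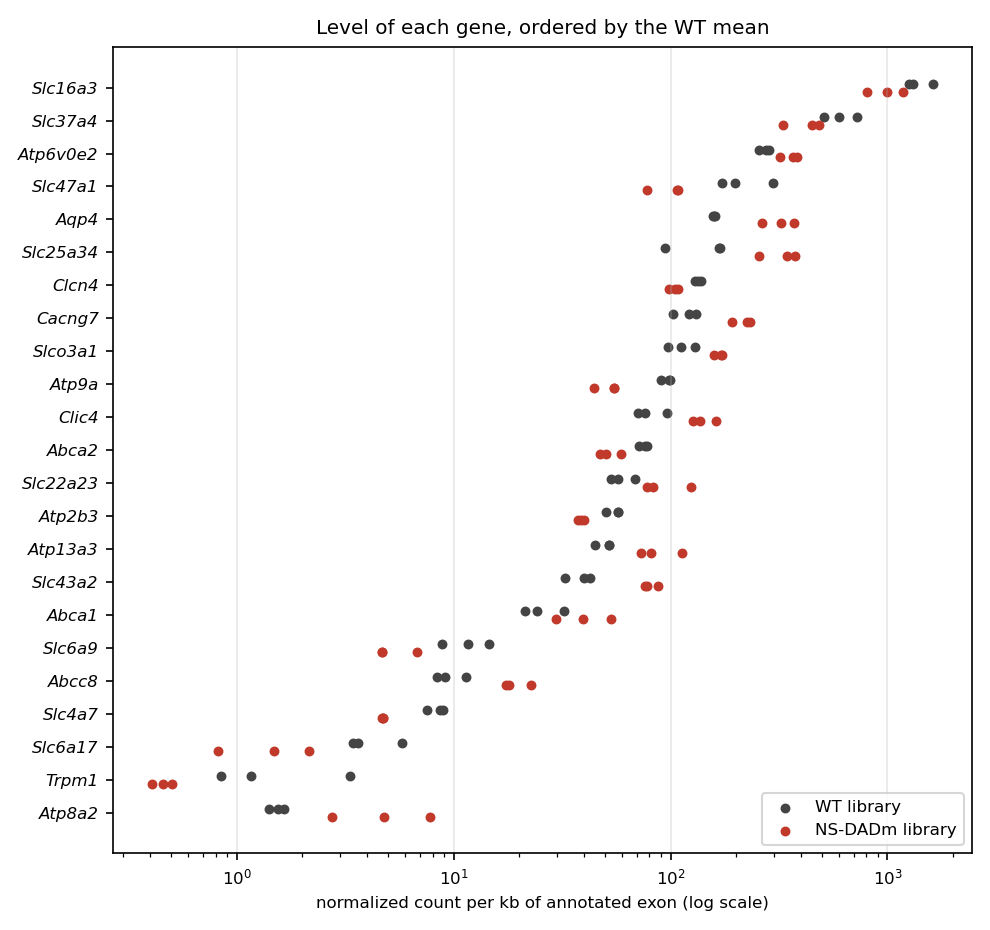
Normalized count per kb of annotated exon (horizontal log axis) in each WT (grey) and NS-DADm (red) library, 1 row for each of 23 genes, ordered by the WT mean. Slc16a3 lies at the top at a WT mean of 1399 and Atp8a2 at the bottom at 1.54.

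The spread within a genotype varied among the 24 genes. The coefficient of variation over the 3 WT libraries ran from 0.889% (Aqp4) to 75.9% (Trpm1), with a median of 13.4%, next to a median of 10.5% over all listed genes. In NS-DADm it ran from 0.596% (Slc4a7) to 49.7% (Atp8a2), with a median of 13.8%, next to 12%. No single NS-DADm library was the highest in all the genes that rose. Replicate 2 was the highest in 5 of the 12, replicate 1 in 4 and replicate 3 in 3. Over the table NS-DADm replicate 2 was the highest in 154 of 361 higher genes, replicate 1 in 107 and replicate 3 in 100. In the genes that fell, WT replicate 3 was the highest in 7 of 12, replicate 2 in 3 and replicate 1 in 2. Over the table WT replicate 3 was the highest in 137 of 348 lower genes, replicate 2 in 135 and replicate 1 in 76.

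Genes that work beside these transporters were taken from lists by function. Of 55 genes of calcium release and reuptake, 8 were listed, 4 higher and 4 lower, Atp2b3 included. Among all genes the authors tested 5.76% were listed, but how many genes of this and the other lists were tested is not known here. Sln and Mrln, which encode sarcolipin and myoregulin, small inhibitors of the sarcoplasmic reticulum calcium pump, were 4.22-fold and 1.7-fold higher. Sln was scarce, at 15.4, 1.82 and 8.64 in WT and 21.1, 61.5 and 26.6 in NS-DADm, and Mrln was at 333, 286 and 263 and 449, 563 and 488. Itpr1, an inositol trisphosphate receptor that releases calcium, was 1.68-fold higher and the calcium-dependent kinase gene Camk2d 1.34-fold. On the other side, S100a1, a calcium-binding regulator of calcium release, fell 1.84-fold, from 719.9, 811 and 753 to 427, 414 and 402. Calm3, a calmodulin gene, was 1.59-fold lower, and Jsrp1, a junctional sarcoplasmic reticulum protein, 1.29-fold. Adjusted over all tested genes in limma, Mrln (0.0128), Itpr1 (0.0226), S100a1 (0.00135) and Calm3 (0.00249) stayed under 0.05. Sln (0.109), Camk2d (0.0578) and Jsrp1 (0.0817) did not.

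Of 82 channel genes outside these families and outside the potassium channels, 4 were listed, 1 higher (Itpr1) and 3 lower. Panx1, pannexin 1, a channel that releases ATP, showed the largest change, from 154, 166 and 282 in WT to 51.7, 73 and 64 in NS-DADm, 3.19-fold lower (log2 fold change -1.62, standard error 0.24, limma adjusted p = 3.03e-04). The ATP-gated channel gene P2rx6 was 1.6-fold lower, from 309.7, 301 and 239 to 174, 155 and 203, and Tmc7, of the transmembrane channel-like family, 1.58-fold. Of 42 partners and regulators of pumps and transporters, 3 were listed. Besides Ostm1 these were Arl6ip5, which binds the glutamate transporter EAAC1 and was 1.34-fold higher, and Fgf11, a homologous factor of sodium channels, 1.8-fold lower. Of these, Arl6ip5 (0.0312) stayed under 0.05 when adjusted over all tested genes in limma, while Ostm1 (0.0634) and Fgf11 (0.116) did not. Of 18 genes that respond to denervation, Runx1 and Chrna1 were 2.35-fold and 1.46-fold higher and Chrnb1 1.56-fold lower. Adjusted over all tested genes in limma, Chrnb1 (0.0329) stayed under 0.05, while Runx1 (0.0685) and Chrna1 (0.0789) did not.

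**Figure D4:**
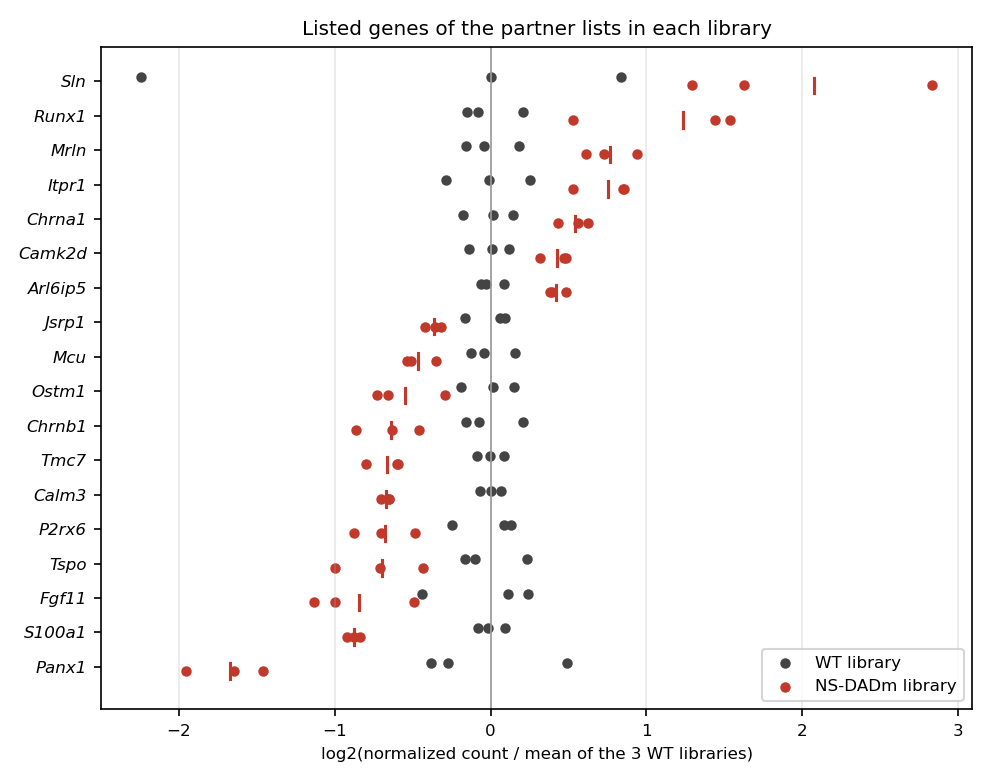
Log2 ratio of each library's normalized count to the WT mean (horizontal axis) for the 18 listed genes of the partner lists that are outside the 24, with WT in grey, NS-DADm in red and a vertical red bar at the log2 ratio of the group means. Panx1, at 3.19-fold lower, lies farthest to the left and Sln, at 4.22-fold higher, farthest to the right.

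Markers of other cell types were mostly without a value. None of the markers of endothelial cells (9 genes), Schwann cells (7), adipocytes (7), erythroid cells (7), fibroblasts (6), smooth muscle and pericytes (6) and satellite cells (5) was listed. Besides Mrc1, 2 of 7 lymphocyte markers were listed, Igkc at 7.24, 3.64 and 0.960 in WT and 31.7, 24 and 61.6 in NS-DADm and Igha at 5.43, 0 and 0 and 19, 18.2 and 41. The part of such cells in the values of the transporters was not tested.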

How the data were processed

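RNA of the TA muscle was sequenced in 6 mice, 3 of each genotype, and libraries were assigned to genotypes by their sample titles. Reads were aligned to GRCm38 (mm10), with STAR per the paper's methods and with TopHat2 (2.1.0), HTSeq and DESeq2 (1.8.2) per the submitters' processing notes, a conflict that could not be settled. The authors' deposited values are normalized counts (a signal without values under 0). In every library 100% of them lay within 0.01 reads of a multiple of 1 step, taken as the value of 1 read. The authors' deposited log2 fold change, fold change ratio and mean columns were not used. The authors' deposited p-value and adjusted p-value columns served only to check how the table was selected and how many genes (12308) were tested. All 709 listed genes had an adjusted p under 0.05.

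Values were compared as log2(normalized count + 1) by limma 3.58.1 under R 4.3.3, two-sided and with a mean-variance trend, fitted on all 709 genes with Benjamini-Hochberg adjustment over them, after a test on simulated data. On this scale changes of scarce genes come out too small. No filter on low values was set. A fold is the ratio of the means of both groups. An exact permutation test of 1 gene cannot go below p = 0.1 with 3 against 3. Counting error limits precision for genes with few reads, and p-values cover the spread between these mice only. Of the 24 genes, 23 are named, and values of 1 lower gene, which is counted, are not reported here. Values per library were to be given for genes with a log2 fold change of at least 0.8, the 5 most abundant and substrate groups that moved both ways, and were given for the other named genes too. The members and lists were chosen with earlier results of these data known. Positions and exon lengths are from GENCODE M21 (706 of 709 identifiers matched). No block was used in the main fit, since the methods describe none for the authors' test. Deviations of same-numbered libraries from their group means had correlations of -0.15, 0.15 and 0.05 over the listed genes.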

Additional observations from a re-analysis of the deposited data

How the results depend on the processing

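Counts of the 24 genes at a limma adjusted p under 0.05 (12 higher and 12 lower) fell to 5 higher and 4 lower when a 2-fold difference was also required. The lower genes fell to 6 at 1.5-fold and to 5 with adjustment over the 12308 tested genes, a stricter threshold. The higher genes were 10 and 9 there. With genes under a mean of 50 normalized counts left out, 12 higher and 9 lower genes remained to be called. Pseudocounts of 0.5 and 5, quantile normalization and a fit without a trend left 12 and 12. When single libraries were left out, the counts ranged from 12 to 12 (higher) and from 11 to 12 (lower), the lost gene being Trpm1 without WT replicate 2. With the replicate number as a block the counts were 12 and 12, but the labels do not say whether the numbers pair the mice. Of 309 alternative values of single genes, 298 stayed on their side of the threshold, 11 in 10 genes missed it and 0 reversed. Without NS-DADm replicate 2 the limma adjusted p of Abca1 was 0.0498. Selection of the table on the same libraries favours such stability. The planned count-based tests were not run. Values were multiples of a step in each library, but this selected table holds too few scarce genes to check that the step is 1 read. Genes with few reads (Trpm1, Slc6a17, Slc6a9, Atp8a2, Slc4a7) are limited by depth.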
